A study of Mus musculus with 8 samples.

Results

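The 9 genes described here encode the catalytic and partner subunits of the NADPH oxidases, the enzymes that move electrons from NADPH across a membrane onto oxygen. They were Duox1, Duoxa1, Duox2, Duoxa2, Nox1, Nox4, Noxo1, Cyba and Cybb, taken by symbol from 20275 gene symbols. The set was chosen on measured values, namely because Duox1 and Duoxa1 were lower in fibroblast wells of FibΔZeb1 mice, so that contrast is given below as a description with no test. Transcripts were counted in single cells of mouse colon tumours by SORT-seq, in which each well of a 384-well plate receives 1 sorted cell and 3′ ends are counted with unique molecular identifiers (UMIs).

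Both groups consisted of Zeb1 fl/fl mice on a tamoxifen diet whose caecum carried a graft of colon tumour organoids, cultured tumour epithelium carrying engineered driver mutations. FibΔZeb1 mice carried an inducible Cre transgene active in fibroblasts, and FibCtrl mice were littermates without Cre. The labels name the transgene Col1a1Cre-ERT2, whereas the methods of the study name a Col1a2-CreERT2 line. Both sexes were used, and ages and the assignment of sex to plates were not given in the sources used here. Each group had 4 mice with 1 plate each, and the mouse was the replicate. Fibroblasts (negative for EPCAM, CD45 and CD31), EPCAM-positive tumour cells and CD45-positive immune cells shared each plate, and cell classes were rebuilt here from marker genes.

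Of 3072 wells, 1831 were kept, and 1448 of these were in a named class. Plates held between 981881 and 5905188 transcripts without spike-in and mitochondrial rows. The shallowest was FibCtrl 2, with a median of 221 transcripts per well. Levels are given as CPM, the transcripts of a gene per 1000000 transcripts of the same class on the same plate, and a plate entered a class mean or a test only with at least 10 wells of that class. Because 3′ ends are counted, CPM is not scaled to transcript length. In such class sums, fewer expressing cells and less RNA per cell cannot be told apart. Intervals are exact 95% Poisson intervals on pooled transcripts, and they and the upper limits given for a count of 0 (3 transcripts) cover counting error only.

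NADPH oxidases make superoxide or hydrogen peroxide on purpose, for killing of microbes, for hormone synthesis and for signalling. Cybb (NOX2) and its membrane partner Cyba (p22phox) form the core of the phagocyte oxidase, which cytosolic subunits switch on. Nox1 is the classical oxidase of colon epithelium and works with the organizer Noxo1. Nox4 is known from fibroblasts, vascular cells and kidney and needs Cyba but no cytosolic organizer. The dual oxidases Duox1 and Duox2 release hydrogen peroxide at epithelial surfaces and reach the membrane only with their maturation factors Duoxa1 and Duoxa2.

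The dual oxidase genes lie as 2 head-to-head pairs on chromosome 2 of the GRCm38 build, in the GENCODE M21 annotation. Duoxa1 lies on the minus strand at chr2:122302191-122313730 and Duox1 on the plus strand at chr2:122315672-122347972, with 1942 bp between their starts. Duox2 lies on the minus strand at chr2:122279247-122298449 and Duoxa2 on the plus strand at chr2:122298900-122302885, with 451 bp between their starts. The 3′ ends of Duoxa2 and Duoxa1 overlap by 695 bases on opposite strands. Whether the counting used the strand was not stated in the sources used here, so low counts of one of these genes beside high counts of the other are uncertain. The remaining members lie apart, with Nox1 on chromosome X, Cybb on chromosome X, Nox4 on chromosome 7, Noxo1 on chromosome 17 and Cyba on chromosome 8.

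**Figure D1:**
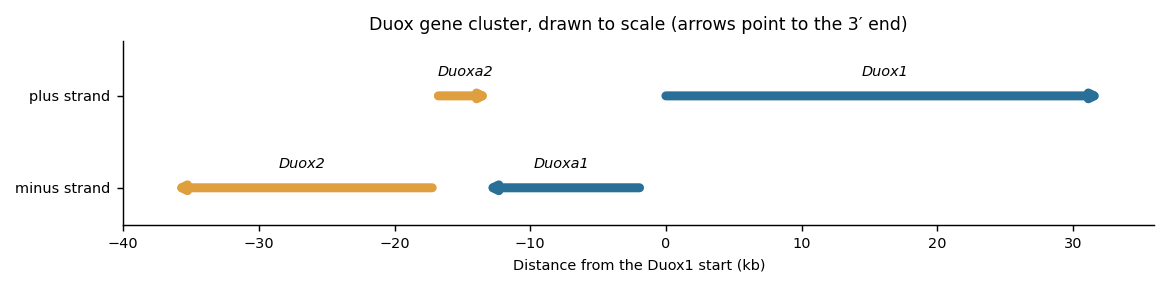
The dual oxidase locus drawn to scale, with distance from the Duox1 start in kb on the x axis and strand on the y axis; arrows point to the 3′ end. Duox1 and Duoxa1 start 1942 bp apart and point away from each other, and the 3′ ends of Duoxa2 and Duoxa1 overlap by 695 bases.

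The 250 bases upstream of the annotated RefSeq start (GRCm38.p6) are shown for Duox1 and Duoxa1, whose transcripts were found in the same class, and for Duoxa2, which alone of the dual oxidase genes held a match to the E-box searched. The windows were chr2:122315422-122315671 on the plus strand, chr2:122313731-122313980 on the minus strand and chr2:122298650-122298899 on the plus strand, all intergenic between the head-to-head starts. Capitals mark CAGGTG or CAGGTA on either strand, E-boxes of the kind that ZEB1 is known to bind.
Duox1: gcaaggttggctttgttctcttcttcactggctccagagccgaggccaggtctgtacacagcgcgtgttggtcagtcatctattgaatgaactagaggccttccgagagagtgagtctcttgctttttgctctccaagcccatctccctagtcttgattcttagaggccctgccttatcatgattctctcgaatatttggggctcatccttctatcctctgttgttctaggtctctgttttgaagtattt
Duoxa1: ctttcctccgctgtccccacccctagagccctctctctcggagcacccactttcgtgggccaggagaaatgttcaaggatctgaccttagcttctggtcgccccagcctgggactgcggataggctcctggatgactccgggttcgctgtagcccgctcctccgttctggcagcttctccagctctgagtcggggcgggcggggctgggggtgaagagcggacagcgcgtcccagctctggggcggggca
Duoxa2: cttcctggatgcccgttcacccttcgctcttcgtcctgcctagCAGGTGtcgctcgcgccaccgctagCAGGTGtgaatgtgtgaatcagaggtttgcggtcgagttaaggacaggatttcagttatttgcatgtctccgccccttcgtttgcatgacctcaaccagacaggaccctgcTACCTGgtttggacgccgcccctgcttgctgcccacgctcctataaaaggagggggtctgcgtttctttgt

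The Duoxa2 window held 2 matches to CAGGTG and 1 to CAGGTA, and those of Duox1, Duoxa1 and Duox2 held 0 of either. Of 32851 windows of the same length, 17.22% held CAGGTG and 10.05% held CAGGTA, and the motifs cannot overlap each other on 1 strand. The GC content was 47.6% in the Duox1 window, 65.6% in that of Duoxa1 and 56.4% in that of Duoxa2, against a median of 52.4% over all windows. A match describes the letters of a window only.

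Across cell classes the members fell into 3 patterns of level. Duox1, Duoxa1 and Nox4 were found mainly in stromal wells, most transcripts of Noxo1, Duoxa2 and Duox2 in epithelial wells, and Cyba and Cybb mainly in immune wells, while Nox1 was close to absent. The classes were clustered from the same cells, although without these 9 genes, so class levels are descriptions with no test. Over all wells of the plates the files held 150.1 transcripts of Duox1, 291.3 of Duoxa1, 18 of Duox2, 222.9 of Duoxa2, 2 of Nox1, 211 of Nox4, 643.4 of Noxo1, 4463.5 of Cyba and 3954.7 of Cybb. Cyba, Cybb and Noxo1 were the most deeply counted members, and values of the others rest on few transcripts.

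**Figure D2:**
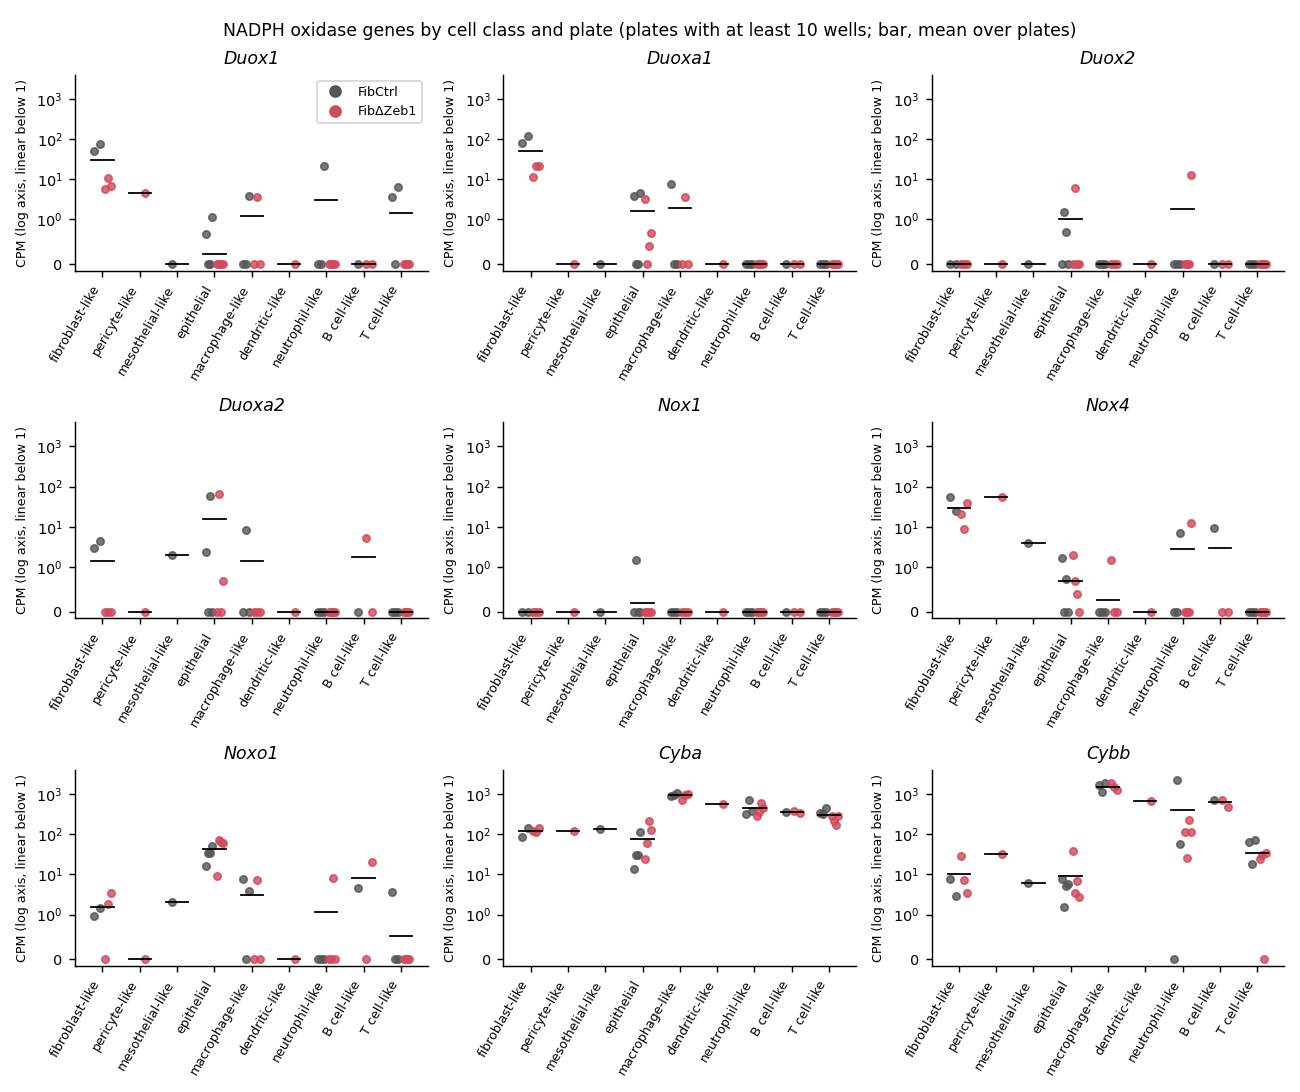
CPM of the 9 genes (y axis, logarithmic above 1 and linear below) by cell class (x axis); each point is 1 plate with at least 10 wells of the class, grey for FibCtrl and red for FibΔZeb1, and bars are means over plates. Duox1 and Duoxa1 stand highest in fibroblast-like wells, Noxo1 in epithelial wells, and Cyba and Cybb in macrophage-like wells with means of 915 and 1501 CPM.

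Duox1, the dual oxidase best known from thyroid and airway epithelium, had its highest level among classes with more than 1 plate in fibroblast-like wells, at 29.4 ± 30.8 CPM (SD, n = 5 plates). These wells held 115 of the 148.1 transcripts in kept wells. Neutrophil-like wells came next at 3.07 ± 8.12 CPM (n = 7), from 3 transcripts on 1 plate. They were followed by T cell-like wells at 1.44 ± 2.57 CPM (n = 7), macrophage-like wells at 1.24 ± 1.92 CPM (n = 6) and epithelial wells at 0.228 ± 0.441 CPM (n = 8), and these 4 neighbours did not differ beyond their spread. Pericyte-like wells had 4.64 CPM on their 1 plate, from 1 transcript. B cell-like wells had 0 of 527853 transcripts, which allows up to 5.68 CPM. At least 1 transcript was found in 33 of 148 fibroblast-like wells (22.3%, median depth 18659 transcripts) and in 4 of 449 epithelial wells (0.891%, median depth 23297).

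Duoxa1, the maturation factor of Duox1, followed the same order at the top. It reached 51.2 ± 47.8 CPM in fibroblast-like wells (n = 5), which held 194.1 of 289.3 transcripts. Macrophage-like wells had 1.87 ± 3.17 CPM (n = 6) and epithelial wells 1.58 ± 1.93 CPM (n = 8), which did not differ beyond their spread. No transcript was found in neutrophil-like wells (0 of 543843, allowing up to 5.52 CPM), T cell-like wells (0 of 686407, up to 4.37 CPM) or B cell-like wells (up to 5.68 CPM). Of the 148 fibroblast-like wells, 26 held transcripts of both Duox1 and Duoxa1, 7 of Duox1 alone, 19 of Duoxa1 alone and 96 of neither, whereas no epithelial well held both.

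Nox4, an oxidase that makes hydrogen peroxide without a cytosolic trigger, was found in fibroblast-like wells at 29.2 ± 17.5 CPM (n = 5) and in pericyte-like wells at 76.6 CPM pooled over 24 wells (interval 52.7 to 107.6). The pericyte value came from 33 transcripts, and only 1 plate, FibΔZeb1 1, had at least 10 such wells, with 55.7 CPM. Mesothelial-like wells had 9.82 CPM pooled (4.90 to 17.6). In each other named class it rested on at most 11 transcripts, with 0.681 ± 0.765 CPM in epithelial wells (n = 8).

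Noxo1, the organizer of the NOX1 enzyme, had its highest level in epithelial wells. It had 42.5 ± 22.5 CPM in epithelial wells (n = 8), with 571.4 of 615.4 transcripts in 162 of 449 wells. The next class mean was 8.23 ± 10.6 CPM in B cell-like wells (n = 3), which rested on 2 transcripts. Its classical partner Nox1 had 2 transcripts in all plates, 1 of them in an epithelial well. With 0.0730 CPM pooled over 13696733 epithelial transcripts (interval 0.00185 to 0.407), Nox1 was close to undetected at this depth where Noxo1 was readily found.

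Duoxa2, the maturation factor of Duox2, had 15.8 ± 28.4 CPM in epithelial wells (n = 8) and at most 1.76 CPM as a mean in any other named class with more than 1 plate. Duox2 itself had 1.05 ± 2.15 CPM there, from 11 transcripts in 8 wells. The neutrophil-like mean of 1.78 ± 4.70 CPM (n = 7) came from 1 transcript and did not differ from it beyond the spread. In 6 of these 8 wells Duoxa2 was also counted. In fibroblast-like wells Duox2 had 0 of 3490365 transcripts, which allows up to 0.860 CPM.

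Cyba, the membrane subunit shared by NOX1, NOX2 and NOX4, was found in every class. Its level was 915 ± 122 CPM in macrophage-like wells (n = 6), 440 ± 159 in neutrophil-like wells (n = 7), 354 ± 14.1 in B cell-like wells (n = 3), 290 ± 89.2 in T cell-like wells (n = 7), 120 ± 24.4 in fibroblast-like wells (n = 5) and 75.7 ± 67.8 in epithelial wells (n = 8). Dendritic-like wells had 601 CPM pooled (526 to 682), with 389.6 to 917.6 CPM on single plates, and are not ranked against these plate means. Neutrophil-like, B cell-like and T cell-like wells did not differ beyond their spread, nor did fibroblast-like and epithelial wells.

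Cybb, the catalytic subunit of the phagocyte oxidase, reached 1501 ± 306.5 CPM in macrophage-like wells (n = 6). Dendritic-like wells had 639.6 CPM pooled (561.9 to 722.9) and B cell-like wells 625 ± 122 CPM (n = 3). Neutrophil-like wells had 385 ± 788 CPM (n = 7), a spread that came from a single well described below. T cell-like wells had 34.4 ± 24.6 CPM (n = 7), fibroblast-like wells 10.1 ± 10.8 (n = 5) and epithelial wells 8.83 ± 11.8 (n = 8), and the last pair did not differ beyond their spread.

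The low Cybb level of fibroblast-like wells was set beside the macrophage markers of the same wells. In the 5 fibroblast plates the 10 macrophage markers summed to 213, 213, 593.2, 110.2 and 302.6 CPM, and Cybb was 7.75, 2.88, 29.04, 7.103 and 3.48 CPM in the same order (FibCtrl 1 and 4, FibΔZeb1 1, 3 and 4). FibΔZeb1 1 had the highest value of both, whereas the other 4 plates did not follow the same order. Between 4 and 9 of the 10 markers were detected, with Lyz2 and Ms4a7 at 0 on 3 plates. Over all fibroblast-like wells there were 3.36 Cybb transcripts per 100 macrophage marker transcripts, against 8.64 in macrophage-like wells. The part of these markers in the Cybb values was not tested.

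The fibroblast-like wells are the compartment in which the Cre transgene targets Zeb1. The class was supported by its markers, since all 10 fibroblast markers were detected on each of the 5 plates used and summed to between 62780 and 94160 CPM. Zeb1 itself had 92.03 and 83.4 CPM on FibCtrl plates 1 and 4, and 43.6, 47.98 and 27.8 CPM on FibΔZeb1 plates 1, 3 and 4. Each of these FibΔZeb1 plates was lower than both FibCtrl plates, an order also found for 9.13% of the 8240 genes that passed edgeR's filter on low counts. The plates with fewer than 10 such wells did not follow this, with 0 transcripts on FibCtrl 2 and 3 (allowing up to 36.96 and 41.02 CPM) and 43.97 CPM from 3 transcripts on FibΔZeb1 2. Since 3′ ends are counted, a transcript without a floxed exon can still be counted, so these values do not test the deletion itself.

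Duox1 was lower in FibΔZeb1 fibroblasts, which is the observation that chose the set. The FibCtrl plates had 50.4 CPM (replicate 1, 46 wells) and 73.4 CPM (replicate 4, 26 wells). The FibΔZeb1 plates had 5.81 CPM (replicate 1, 24 wells), 10.7 CPM (replicate 3, 17 wells) and 6.95 CPM (replicate 4, 16 wells). The groups did not overlap on these plates. All FibΔZeb1 plates likewise lay below all FibCtrl plates for 9.13% of the 8240 genes that passed edgeR's filter on low counts. The group means of 61.9 and 7.80 CPM of Duox1 differed 7.93-fold. On the 3 plates with fewer than 10 fibroblast wells (FibCtrl 2 and 3, FibΔZeb1 2) Duox1 was at 0, which allows up to between 36.96 and 43.97 CPM, and with them the groups overlapped. Over the 7 plates with at least 5 wells the means were 41.3 and 5.85 CPM.

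Duoxa1 showed the same order of plates by group. It had 81.4 and 120.9 CPM on FibCtrl plates 1 and 4, and 11.6, 21.3 and 20.9 CPM on FibΔZeb1 plates 1, 3 and 4. The groups did not overlap on these plates, an order found for 9.13% of the 8240 genes that passed the filter. The means of Duoxa1 differed 5.64-fold. On the 3 small plates it was at 0 as well. Plates of replicates 1 and 2 came from 1 flow cell, and those of replicates 3 and 4 from a second. Of the plates with at least 10 fibroblast-like wells, each flow cell held 1 FibCtrl plate. That plate was 8.68-fold higher for Duox1 and 7.01-fold for Duoxa1 in the first flow cell, and 8.34-fold and 5.73-fold higher in the second. These ratios split the values that chose the set and leave out FibCtrl 2 and 3, so nothing is read from their likeness.

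**Figure D3:**
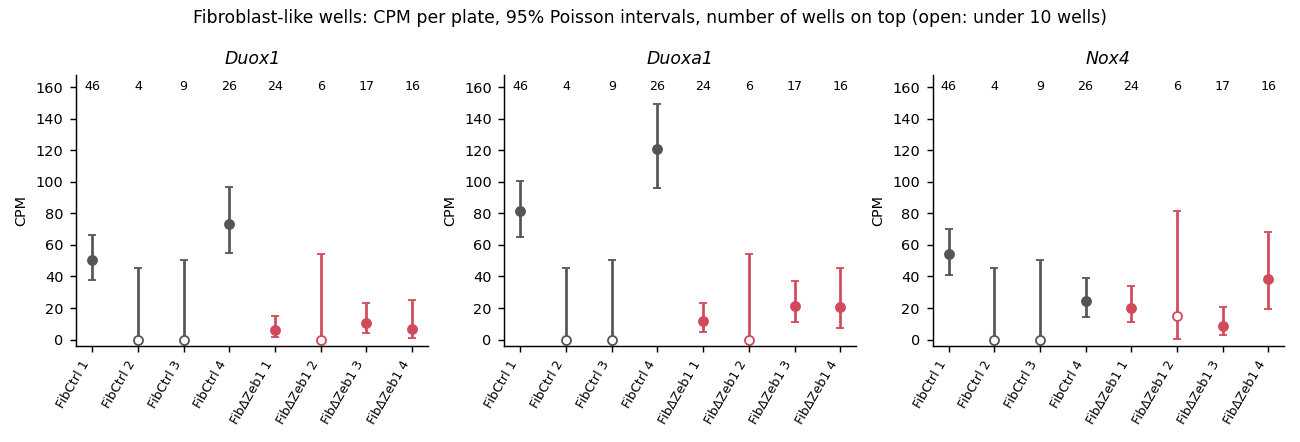
CPM of Duox1, Duoxa1 and Nox4 in fibroblast-like wells of each plate (grey FibCtrl, red FibΔZeb1); bars are exact 95% Poisson intervals, numbers give wells, and open points mark plates with fewer than 10 wells. Duox1 was 50.4 and 73.4 CPM on the FibCtrl plates with at least 10 wells and 5.81 to 10.7 CPM on such FibΔZeb1 plates, whereas Nox4 overlapped between groups.

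Nox4 had 54.2 and 24.5 CPM on FibCtrl plates 1 and 4, and 20.3, 8.88 and 38.2 CPM on FibΔZeb1 plates 1, 3 and 4, so the groups overlapped. Cyba also overlapped, with 82.3 and 139.6 CPM against 122, 112 and 143 CPM. Duoxa2 had 6 transcripts in 4 wells, all on FibCtrl plates. Because its 3′ end overlaps that of Duoxa1, these transcripts cannot be assigned with certainty. Noxo1 had 4 transcripts, and Nox1 and Duox2 had none.

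As a description of the same contrast, the fitted differences in fibroblast-like wells (FibΔZeb1 minus FibCtrl, log2, edgeR) were -2.99 for Duox1 (SE 0.42), -2.57 for Duoxa1 (SE 0.36), -0.98 for Nox4 (SE 0.60) and 0.14 for Cyba (SE 0.31), and these 4 members passed the filter on low counts. Every FibΔZeb1 plate lay below every FibCtrl plate for 9.13% of the 8240 genes that passed this filter, Duox1 and Duoxa1 among them. The rule used this contrast, so nothing is read from that count or from the size of a difference beside its SE.

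The fibroblast-like wells came from a pair of clusters, and Duox1 and Duoxa1 lay almost entirely in one of them. One cluster was led by the matrix genes Dcn, Dpt and Lum (63 wells), the other by Mgp, Col8a1, Spp1 and the contractile gene Tagln (85 wells). In the Dcn, Dpt and Lum cluster Duox1 had 64.1 CPM (52.6 to 77.4) and Duoxa1 108.7 CPM (93.5 to 125.6). In the Mgp and Tagln cluster they had 3.88 CPM (1.56 to 7.99) and 6.09 CPM (3.04 to 10.9). Nox4 had overlapping intervals in both, with 30.9 CPM (23.1 to 40.5) and 28.8 CPM (21.5 to 37.8). Zeb1 had 81.95 CPM in the first and 45.98 CPM in the second, pooled over 45 FibCtrl and 18 FibΔZeb1 wells and over 40 and 45 wells. On the plates with at least 5 wells of both it had 115 and 67.75 CPM (FibCtrl 1), 85.8 and 72.6 CPM (FibCtrl 4), 48.5 and 47.6 CPM (FibΔZeb1 3) and 31.8 and 20.2 CPM (FibΔZeb1 4), with overlapping intervals on each plate.

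The share of fibroblast-like wells in the Dcn, Dpt and Lum cluster differed between plates. It was 25 of 46, 1 of 4, 0 of 9 and 19 of 26 wells on FibCtrl plates 1 to 4, and 2 of 24, 1 of 6, 6 of 17 and 9 of 16 wells on FibΔZeb1 plates 1 to 4. These sizes are a description. FibCtrl 1 and 4 had 54.35% and 73.08% of their wells in the cluster, with 50.4 and 73.4 CPM of Duox1. FibΔZeb1 1, 3 and 4 had 8.33%, 35.29% and 56.25%, with 5.81, 10.7 and 6.95 CPM. The part of these shares in the lower Duox1 and Duoxa1 level of FibΔZeb1 fibroblasts was not tested.

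Within that cluster the FibΔZeb1 plates 1, 3 and 4 lay below FibCtrl 1 and 4. The cluster held 108.05 of the 115 fibroblast-like transcripts of Duox1 and 183.15 of the 194.1 of Duoxa1. These are the values that chose the set, so the order is not a separate observation. Duox1 had 88.6 CPM on FibCtrl plate 1 (25 wells) and 89.3 CPM on FibCtrl plate 4 (19 wells). On FibΔZeb1 plates it had 21.1 CPM from 2 wells (plate 1), 24.2 CPM from 6 wells (plate 3) and 10.6 CPM from 9 wells (plate 4). Duoxa1 had 147 and 145 CPM on the FibCtrl plates, and 52.7, 44.5 and 31.8 CPM on the FibΔZeb1 plates. Over plates with at least 5 wells of the cluster the means differed 5.11-fold for Duox1 and 3.84-fold for Duoxa1, less than over all fibroblast-like wells. These FibΔZeb1 values rest on 2 to 11 transcripts each. FibCtrl 2 and FibΔZeb1 2, with 1 well each in this cluster, had 0 transcripts of both genes, so with them the groups overlapped.

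**Figure D4:**
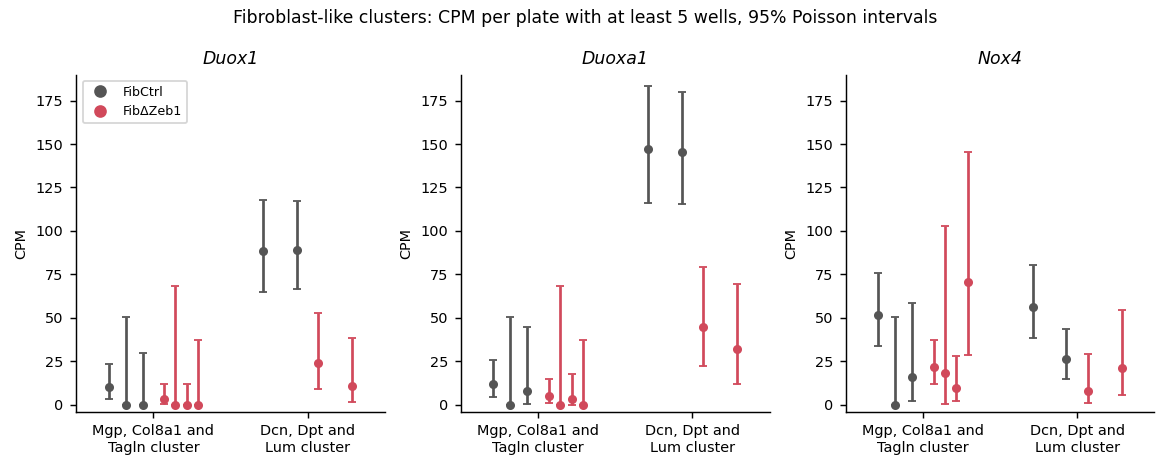
CPM of Duox1, Duoxa1 and Nox4 in the fibroblast-like clusters, by plate in replicate order for plates with at least 5 wells of the cluster (grey FibCtrl, red FibΔZeb1); bars are exact 95% Poisson intervals. In the Dcn, Dpt and Lum cluster Duox1 was 88.6 and 89.3 CPM on FibCtrl plates and 24.2 and 10.6 CPM on FibΔZeb1 plates, while in the Mgp, Col8a1 and Tagln cluster the highest values were 9.96 CPM of Duox1 and 11.95 CPM of Duoxa1, both on FibCtrl 1.

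A set of 37 fibroblast-like wells had been left out for carrying Ptprc (CD45) or Epcam, with 2 transcripts or more. They held 66.1 Duoxa1 transcripts, of which 45.5% came from 1 well. The FibCtrl 1 wells of this set (22 wells) had 65.9 CPM of Duoxa1 and the FibΔZeb1 1 wells (11 wells) had 0. A further cluster of 93 shallow wells with fibroblast markers stayed unnamed (median 685 transcripts), and it held 1 Duox1 and no Duoxa1 or Nox4 transcripts.

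The genes whose pattern over classes and plates was most like that of a member were found by Pearson's r of log2(CPM + 10) over 40 class-by-plate sums and 9995 genes. The sums share plates and depths, so r is a description. For Duox1 they were Wisp2 (r = 0.894), Scn7a (0.888), Lrrc17 (0.877), Abi3bp (0.853) and Pi16 (0.852). For Duoxa1 they were Lrrc17 (0.951), Clec3b (0.939), Fibin (0.927), Scara5 (0.92) and Thbs3 (0.905), so Lrrc17 stood in both lists. Nox4 was most like Lama2 (0.9), Hoxb2 (0.893), Ebf2 (0.89), Aoc3 (0.888) and Aspn (0.881). Cybb was most like Ly86 (0.904), Unc93b1 (0.862), Fcgr2b (0.858), Irf5 (0.857) and Plekhm3 (0.855). For Nox1, with 2 transcripts, the highest r was 0.653 (Gm11127) and nothing is read from it.

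The epithelial wells include the grafted tumour cells. Their contrast of genotypes was not used to choose the genes and could be tested in all 8 mice. Of 10317 genes tested with edgeR's quasi-likelihood test, 0% passed an adjusted p of 0.05 (0 genes), 188 had an unadjusted p under 0.05, and DESeq2 called 1 gene. Of the 9 members, Cyba and Noxo1 passed the filter on low counts and neither was called.

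Noxo1 had 15.9, 34.7, 34.8 and 51.7 CPM on FibCtrl plates 1 to 4, and 9.07, 69.7, 63.99 and 60.3 CPM on FibΔZeb1 plates 1 to 4. Of the FibΔZeb1 plates, 3 lay above all FibCtrl plates and replicate 1 lay below them. The fitted difference was 0.58 on the log2 scale (SE 0.53, adjusted p = 0.9998), so it was within the spread between mice. The group means were 25.3 and 39.4 CPM in the first flow cell and 43.2 and 62.1 CPM in the second.

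Cyba had 13.2, 30.2, 30.4 and 113.9 CPM on FibCtrl plates 1 to 4, and 23.97, 60.01, 206.6 and 126.9 CPM on FibΔZeb1 plates 1 to 4. The groups overlapped, and FibCtrl 4 was nearer to the higher FibΔZeb1 plates than to the other controls. The fitted difference was 1.15 (SE 0.70, adjusted p = 0.9998), with mean normalised CPM of 46.1 and 102.8 (a scale set by edgeR over the filtered genes). Within the flow cells the means were 21.7 and 41.99 CPM, and 72.2 and 167 CPM. The direction was the same in both.

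Duoxa2 and Duox2 were restricted to few epithelial wells. Duoxa2 had 2.37, 0, 57.7 and 0 CPM on FibCtrl plates 1 to 4, and 0, 65.6, 0 and 0.692 CPM on FibΔZeb1 plates 1 to 4. Thus 1 plate of each group carried nearly all of it. Duox2 had 0, 1.51, 0.724 and 0 CPM, and 0, 6.20, 0 and 0 CPM in the same order. A single well of FibCtrl 3 held 77.7 of 182.9 Duoxa2 transcripts (42.5%).

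**Figure D5:**
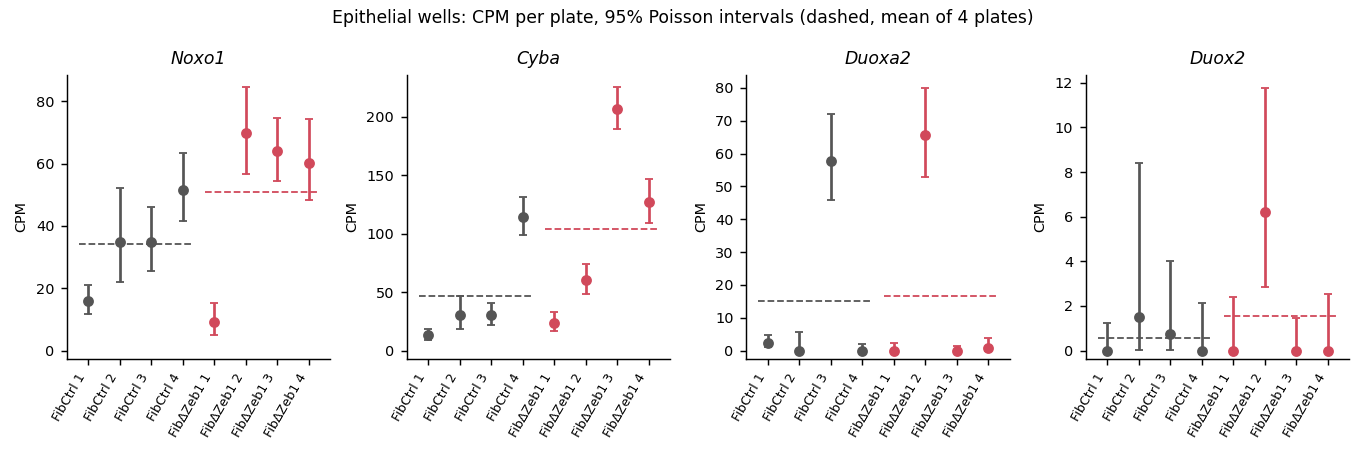
CPM of Noxo1, Cyba, Duoxa2 and Duox2 in epithelial wells of each plate (grey FibCtrl, red FibΔZeb1); bars are exact 95% Poisson intervals and dashed lines are means of 4 plates. Noxo1 and Cyba overlapped between groups, and Duoxa2 was high on FibCtrl 3 (57.7 CPM) and FibΔZeb1 2 (65.6 CPM) only.

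The Duoxa2 wells shared a cluster that the rule had not used. It was led by genes of mature colon epithelium, among them Lypd8, Guca2a and the water channel Aqp8, and it had 29 wells, 25 of them on FibΔZeb1 plate 2. It held 163.9 of the 182.9 epithelial Duoxa2 transcripts at 449.9 CPM (384 to 525) and all 11 of the Duox2 transcripts at 30.2 CPM (15.1 to 54.04). The 25 wells of FibΔZeb1 2 had 309 CPM of Duoxa2, and the single well of FibCtrl 3 had 1998 CPM. Noxo1 was 121 CPM (87.8 to 162) in this cluster. With these wells mostly on 1 plate, the cluster and that plate cannot be told apart.

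The remaining epithelial clusters differed in Noxo1 and Cyba. A cluster led by Tgm3 and Bpifb1 (110 wells) had 64.5 CPM of Noxo1 and 184 CPM of Cyba. One led by Twist1 and S100a14 (85 wells), found mainly on the replicate 1 plates, had 12.2 CPM of Noxo1 (9.05 to 16.1) and 15.6 CPM of Cyba (12.02 to 19.9). The largest (157 wells, led by Greb1) and one led by Wfdc2 and Krt7 (68 wells) lay between them, with 41.3 and 42.5 CPM of Noxo1. The replicate 1 plates of both groups, which hold the low cluster, were also the lowest plates for Noxo1 and Cyba in their group. With that cluster mainly on these plates, the cluster and the plates cannot be told apart, and the part of either was not tested.

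Cybb in epithelial wells had 7.80, 1.51, 5.07 and 5.74 CPM on FibCtrl plates, and 37.6, 3.45, 6.75 and 2.77 CPM on FibΔZeb1 plates. The high value of FibΔZeb1 1 stood beside the highest macrophage marker sum, 657.5 CPM with 9 of 10 markers detected, against 53.1 to 138.3 CPM on the other 7 plates. The part of these markers in the Cybb value was not tested. Duoxa1 had 3.73, 0, 0 and 4.59 CPM, and 3.24, 0, 0.397 and 0.692 CPM. The fibroblast marker sums were highest on FibCtrl 1 (3046 CPM), FibΔZeb1 1 (1845 CPM) and FibCtrl 4 (1125 CPM), which were also the 3 plates with the most Duoxa1, and their part was not tested.

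Macrophage-like wells carried both core genes of the phagocyte oxidase. Cyba and Cybb together were counted in 153 of 172 wells, and only 3 wells had neither. A cluster led by Mmp12, Lyz1, Apoe and C1qc (150 wells) and one led by Saa3 and Arg1 (22 wells) had overlapping intervals of Cybb, 1599 CPM (1537 to 1663) and 1580 CPM (1411 to 1765). Cyba was 873 CPM (827 to 921) in the first and 733 CPM (618.5 to 861) in the second.

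In macrophage-like wells the differences of both genes between genotypes lay within the spread between mice. Cybb had 1613, 1098 and 1810 CPM on FibCtrl plates 1, 3 and 4, and 1835, 1441 and 1211 CPM on FibΔZeb1 plates 1, 3 and 4. Cyba had 896.6, 916.9 and 1039 CPM, and 693.9, 932 and 1010 CPM. The fitted differences were -0.018 for Cybb (SE 0.26) and -0.14 for Cyba (SE 0.23), both with an adjusted p of 0.9991. Of 4406 genes tested, 0% were called (0 genes by edgeR, 170 with an unadjusted p under 0.05, 2 by DESeq2). After each well was thinned to 1000 transcripts, which left out 9 shallower wells, Cybb was found in 62% ± 8.23 of FibCtrl wells and 73.1% ± 11.8 of FibΔZeb1 wells (SD over 3 plates each), against 95.1% and 94.1% before thinning.

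Neutrophil-like wells had less Cybb than macrophages, although neutrophils are the classical users of this enzyme. Cybb was found in 24 of 256 wells (9.38%, median depth 1889 transcripts), and a T cell-like class at a median depth of 3229 had it in 20 of 144 wells (13.9%), so at this depth the share of neutrophil-like wells is not read as expression. The plates had 0, 2165 and 57.3 CPM (FibCtrl 2, 3 and 4) and 115.5, 24.96, 223.2 and 111.9 CPM (FibΔZeb1 1 to 4). The value of FibCtrl 3 came from 1 well that held 101.2 of all 156.3 transcripts. Cybb did not pass the filter on low counts here. After thinning to 1000 transcripts, Cybb was found in 8.25% ± 11.2 of FibCtrl and 5.09% ± 4.31 of FibΔZeb1 neutrophil-like wells. At that depth macrophage-like wells had 62% and 73.1%, B cell-like wells 48% (1 plate) and 40.7%, and T cell-like wells 5.80% and 2.27%. At equal depth the neutrophil-like share was thus below those of macrophage-like and B cell-like wells, but not apart from that of T cell-like wells.

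Cyba was found more evenly in neutrophil-like wells. It had 322, 720.6 and 379.7 CPM on FibCtrl plates 2, 3 and 4, and 277.3, 349.5, 581.4 and 447.4 CPM on FibΔZeb1 plates 1 to 4. The groups overlapped, and the fitted difference was -0.19 (SE 0.43, adjusted p = 0.982). Of 1062 genes tested, 0.0942% were called. The 1 called gene was BC018473, whose normalised CPM fell from 2862 to 11.3 (log2 difference -7.42, SE 0.67, adjusted p = 6.24e-05), and it was named after its values were seen.

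In T cell-like wells Cyba was the 1 member that passed the filter on low counts. It had 341.5, 307.1 and 443.9 CPM on FibCtrl plates 1, 3 and 4, and 281.7, 216.7, 165.6 and 274.9 CPM on FibΔZeb1 plates 1 to 4. All FibΔZeb1 plates lay below all FibCtrl plates used, as they did for 2.52% of the 1113 genes tested. The fitted difference of -0.62 (SE 0.33) had an adjusted p of 0.972 and was not called. Neither was any other gene (0%, with 31 genes at an unadjusted p under 0.05 and 3 called by DESeq2). After thinning to 1000 transcripts Cyba was found in 23.99% ± 11.2 of FibCtrl wells (n = 3) and 16.1% ± 6.97 of FibΔZeb1 wells (n = 4), a difference within the spread, against 56.8% and 34.2% before thinning. At 500 transcripts the order turned, with 10.03% ± 1.17 of FibCtrl wells and 13.1% ± 5.08 of FibΔZeb1 wells.

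The T cell-like wells came from a pair of clusters that differed in Cyba. The one led by Ctla4, Icos, Tnfrsf4 and Foxp3 (96 wells), genes of regulatory and activated T cells, had 384.5 CPM (334.6 to 439.2). The one led by Satb1, S1pr1, Tcf7 and Lef1 (48 wells), genes of naive T cells, had 149.8 CPM (90.2 to 233.9). The latter held 14 of 46, 8 of 19 and 1 of 23 wells on FibCtrl plates 1, 3 and 4, and 2 of 18, 10 of 11, 6 of 12 and 5 of 11 wells on FibΔZeb1 plates 1 to 4. Within the first cluster Cyba had 369.7, 460.8 and 447.2 CPM on FibCtrl plates 1, 3 and 4, and 301, 139 and 330.2 CPM on FibΔZeb1 plates 1, 3 and 4, with overlapping intervals, and 713.1 CPM in the 1 well of FibΔZeb1 2, from 3 transcripts. The part of the clusters in the Cyba values was not tested.

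B cell-like wells could not be tested, since only 1 FibCtrl plate had at least 10 of them. Cybb had 688.7 CPM on FibCtrl 1, and 702.2 and 483.7 CPM on FibΔZeb1 2 and 4. Cyba had 348.5 CPM, and 369.4 and 342.6 CPM. At least 1 of the pair was found in all but 19 of the 143 wells.

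The other genes of the pathway were taken from 5 lists written from general knowledge of it. Of the 7 partners of the phagocyte oxidase, those with the highest levels are given by class. In neutrophil-like wells Ncf1 (p47phox, the organizer of NOX2) had 1127 ± 326 CPM and Rac2, the GTPase that completes the enzyme, 854 ± 160 CPM (n = 7). In macrophage-like wells the highest of the list was Rac1 with 511 ± 39.9 CPM (n = 6). B cell-like wells had 885.5 ± 71.6 CPM of Rac2 and 498 ± 106 CPM of the proton channel gene Hvcn1 (n = 3), and T cell-like wells 1290 ± 231 CPM of Rac2 and 399 ± 77.02 CPM of Rac1 (n = 7).

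None of these partners was called between genotypes. Of the 7 genes, 4 were tested in epithelial, 7 in macrophage-like, 5 in neutrophil-like and 2 in T cell-like wells, with median log2 differences of -0.12, 0.11, -0.16 and -0.21, against 0.0027, -0.021, 0.025 and 0.0033 over all genes tested. Hvcn1 in macrophage-like wells was the 1 partner with an unadjusted p under 0.05 and was named after its values were seen, with 96.4 against 39.7 normalised CPM (log2 difference -1.10, SE 0.41, adjusted p = 0.9991). Noxa1, the activator that works with Noxo1, had 4.28 ± 4.17 CPM in epithelial wells (n = 8), and with Nox3, an oxidase of the inner ear at 5 transcripts, it passed the filter in none of the 4 classes tested.

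Among 18 peroxidases and other genes that remove hydrogen peroxide the highest were Gpx3, a secreted glutathione peroxidase, with 1361 ± 486 CPM and Prdx1 with 448 ± 96.7 CPM in fibroblast-like wells (n = 5). In epithelial wells they were Prdx1 with 944 ± 139 CPM and Prdx2 with 459 ± 72.7 CPM (n = 8), and in macrophage-like wells Gpx1 with 1417 ± 353 CPM and Prdx1 with 518 ± 60.4 CPM (n = 6). Of the 18, 12 were tested in epithelial, 10 in macrophage-like, 5 in neutrophil-like and 4 in T cell-like wells, and none was called. Their median differences were 0.094, -0.029, 0.024 and 0.22.

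The 3 superoxide dismutases and 6 targets of the oxidative stress factor Nrf2 gave no call either. Of the dismutases 3, 2, 1 and 1 were tested in these classes and of the Nrf2 targets 5, 4, 1 and 0, with median differences of -0.10, -0.14, 0.47 and 0.060, and of 0.064, -0.31 and -0.72. The extracellular dismutase Sod3 had 777 ± 404 CPM and Sod1 had 200 ± 30.8 CPM in fibroblast-like wells (n = 5). In the fibroblast contrast, which chose the set, Sod3 had 1169 and 563 normalised CPM (log2 difference -1.07, SE 0.48), given with no test. Of the Nrf2 targets Txnrd1 and Srxn1 were the highest there, with 99.4 ± 27.3 and 55.7 ± 15.9 CPM.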

How the data were processed

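Transcripts were counted in 8 plates of 384 wells, 1 plate per mouse and 4 mice per group, by SORT-seq with CEL-Seq2 libraries on a NextSeq 500. Reads were aligned, per the labels and the paper's methods, with BWA to the mouse transcriptome (GRCm38), and the submitters' processing notes also name Cell Ranger 2.1.1. The deposited values were estimated counts per gene and well, namely UMI counts that the authors had corrected for UMI collisions and had not scaled to depth. Of values above 0, 87.12% were exactly whole, and all lay within 0.2 of a whole UMI once a collision formula with 4096 UMIs was inverted. Replicates 1 and 2 shared a flow cell, as did replicates 3 and 4. The sort gates of single wells were not used.

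Wells with at least 500 transcripts (without spike-in and mitochondrial rows) and a mitochondrial share within 3 median absolute deviations of the plate's median were kept. They were clustered on 2000 variable genes, with the members and pathway genes left out, using 20 principal components, 15 neighbours and Leiden resolution 1 (Python 3.11.15, leidenalg 0.10.2). Clusters were named from marker lists, with a minimum score of 0.4 and 3 markers in 10% of wells. Both minima were chosen with the data in view, and 346 wells stayed unnamed. Wells received 1 sorted cell each, so doublets were not called, and fibroblast-like wells with at least 2 Ptprc or Epcam transcripts were left out.

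Estimated counts were summed per class and plate, rounded, and tested with edgeR 4.0.16 (quasi-likelihood, TMM scaling, its expression filter, Benjamini-Hochberg threshold 0.05) with genotype as the only term. Differences are FibΔZeb1 minus FibCtrl on the log2 scale, and normalised CPM is over the filtered genes after TMM scaling. DESeq2 1.42.0, no gene filter, a flow cell term, a replicate block, each plate left out, other minima of wells (5) and transcripts (250), no mitochondrial filter and classes by marker sums were the alternatives. The edgeR fit was also run on counts simulated for epithelial and macrophage-like wells, with the same dispersion for all genes. Real genes differ in their spread between mice and the other classes were not simulated, so nothing is read from that run. The study's Welch tests between cells were not repeated, since they treat cells as replicates, nor was its batch correction. Members and lists were chosen with earlier results of these data known. Every member was named, and of each pathway list those called and the 2 with the highest CPM in a class described, apart from items not reported here. Likeness used a pseudocount of 10 CPM.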

Additional observations from a re-analysis of the deposited data

Results flagged for a closer look

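Over the classes with 4 plates in a group, 16 groups of a gene, class and genotype were examined. In these, 6 values, all in epithelial wells, lay far from the other plates of their group by Dixon's criterion. By this criterion chance flags about 1 in 20 groups of normally distributed values, which groups with many counts of 0 are not. The values are CPM.

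Duox2 on FibΔZeb1 plate 2 (6.20 CPM) was far above the other 3 plates of its group, which had 0. Duoxa2 was high on the same plate, with 65.6 CPM, and on FibCtrl plate 3, with 57.7 CPM. In the first case 25 wells of the cluster led by Lypd8, Guca2a and Aqp8 were on that plate, and in the second 1 well held 77.7 transcripts.

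Noxo1 on FibΔZeb1 plate 1 was low, at 9.07 CPM against 60.3 to 69.7 CPM on the other FibΔZeb1 plates. Cyba on FibCtrl plate 4 was high, at 113.9 CPM against 13.2 to 30.4 CPM on the other FibCtrl plates, and only just met the criterion. Cybb on FibΔZeb1 plate 1 was high, at 37.6 CPM against 2.77 to 6.75 CPM, on the plate whose epithelial wells also had the highest macrophage marker sum (657.5 CPM).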

How the results depend on the processing

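All 9 members kept the class with their highest mean level without the mitochondrial filter and with 250 transcripts per well, and 8 did with classes by marker sums. For Duox2 that class in the main setting was neutrophil-like, not epithelial, and rested on 1 transcript. For Nox1 it was epithelial, also from 1 transcript. Of 90 alternative fits of members outside fibroblasts, 82 kept their direction with none called, and 8 reversed. Cybb in macrophage-like wells turned to 0.058 without a gene filter, 0.050 with at least 5 wells and 0.032 with 250 transcripts, and ranged from -0.21 to 0.11 with 1 plate left out (0.067 without FibCtrl 1, 0.0965 without FibCtrl 4, 0.035 without FibΔZeb1 3 and 0.11 without FibΔZeb1 4). Cyba in neutrophil-like wells turned to 0.24 without FibCtrl 3 and was as low as -0.40 without another plate. Without a gene filter, Cybb in neutrophil-like wells was -2.55 with an adjusted p of 0.00089, where 1 FibCtrl well held 101.2 of 156.3 transcripts.

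Genes called moved from 0 to 1 in epithelial, 2 in macrophage-like and 3 in T cell-like wells with DESeq2. Without a gene filter 43 were called in macrophage-like, 20 in neutrophil-like and 15 in T cell-like wells. T cell-like wells had 3 with 250 transcripts per well and 2 with classes by marker sums. With 1 plate left out, counts ranged from 1 to 6 in neutrophil-like wells (6 without FibCtrl 2) and from 0 to 1 in T cell-like wells (1 without FibΔZeb1 4). The cause of these shifts was not tested. B cell-like wells, testable only with at least 5 wells per plate, had 0 of 1056 genes called by edgeR (14 at an unadjusted p under 0.05), and their other alternatives could not be fitted.

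The log2 ratio of mean CPM over plates, which is not the edgeR fit, was -2.99 for Duox1 in fibroblast-like wells, and -2.41 with 250 transcripts, -2.39 without the mitochondrial filter and -2.39 with the shallow clusters named, in each of which 3 FibCtrl plates entered in place of 2. It was -2.35 in the Dcn, Dpt and Lum cluster. For Duoxa1 it was -2.50, and -1.92, -1.91, -1.89 and -1.94 in the same order. With 1 plate left out they ranged from -3.28 to -2.69 and from -2.75 to -2.18. The last pair of settings was chosen after seeing the data. In the settings with 3 FibCtrl plates, the added plate was FibCtrl 2 or 3. Both genes were at 0 on each of these in the main setting, and with a FibCtrl plate at 0 the groups overlap.

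Replicate numbers were not taken to pair the mice, since not every same-numbered pair correlated above 0.1. Same-numbered plates deviated together with correlations of 0.539, 0.258, 0.129 and 0.097 in epithelial wells, but of 0.091, -0.00084 and 0.086 in macrophage-like, 0.159, -0.231 and 0.4995 in neutrophil-like, 0.0448, 0.101 and 0.179 in T cell-like, and 0.307 and 0.178 in fibroblast-like wells. FibCtrl 4 correlated best with FibΔZeb1 3 in epithelial wells (0.338), not with its own number. Cyba in epithelial wells was higher in FibΔZeb1 in 4 of 4 same-numbered pairs. The share of all genes with such an order is not given here and the pairing was not adopted, so nothing is read from that count. With the replicate block the fitted difference of Cyba was 1.18 (SE 0.38, adjusted p = 1 by edgeR). With the replicate block 0 genes were called in epithelial, macrophage-like and T cell-like wells by edgeR (349, 179 and 42 at an unadjusted p under 0.05) and 1 in neutrophil-like wells, so that it changed no call of a member. In macrophage-like wells thinned to 500 transcripts, Cyba was found in 35.3% of FibCtrl and 31.4% of FibΔZeb1 wells, and Cybb in 45.97% and 50.9%.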
